A study of Mus musculus with 4 samples.

Results

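O-GlcNAc cycling and hexosamine pathway enzymes were followed in RNA-seq counts of mouse embryonic stem cells (mESCs). The members are 10 genes chosen by name from textbook knowledge of the pathway, out of 37620 genes in the count table: Ogt, Mgea5, Gfpt1, Gfpt2, Gnpnat1, Pgm3, Uap1, Uap1l1, Nagk and Gnpda1. Earlier results of these data were known when the members were chosen. All 10 were present, all passed the filter on low counts and all had at least 606 counts in every library. The cells carried endogenous CTCF tagged for degradation with auxin, and the tagged protein was replaced from a vector either by wild-type CTCF (WT_CTCF, 2 libraries) or by CTCF changed at T668, its O-GlcNAc site (MUT_CTCF, 2 libraries). Both lines thus share the tag, the vector, the auxin treatment and culture on gelatin with serum and LIF. Each line came from a clone picked for a CTCF level near that of the endogenous protein, so the change at T668 and the difference between clones cannot be told apart. The methods call the libraries biological replicates of a line, and p-values here measure only the spread between them.

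O-GlcNAc is a single sugar, N-acetylglucosamine, placed on serine and threonine residues of nuclear and cytoplasmic proteins. OGT adds it and the O-GlcNAcase encoded by Mgea5 (now named Oga) takes it off. The sugar donor, UDP-GlcNAc, is made by the hexosamine pathway, a side branch of glycolysis that joins fructose phosphate with nitrogen from glutamine, an acetyl group and UTP. In ES cells OGT is essential for survival, and the same donor also feeds N-glycans, GPI anchors and glycosaminoglycans.

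The question put to these genes was whether the enzymes that write, erase and supply the mark differed at the RNA level between cells with wild-type CTCF and cells whose CTCF lacks this O-GlcNAc site. No member passed an adjusted p of 0.05 in edgeR's quasi-likelihood test. Of the 10 members 0 were higher in MUT_CTCF, against 1.56% of all tested genes, and 0 were lower, against 1.61% of all tested genes. Adjusted p-values (Benjamini-Hochberg, over 16264 genes) ran from 0.153 to 0.965. Without the adjustment, 1 member (Gfpt2) was higher at p under 0.05, where 7.61% of all tested genes were, and 2 members (Ogt and Nagk) were lower, where 7.65% of all tested genes were. By the criterion of a fold change above 2 together with p under 0.05 before adjustment, 0 members passed, beside 1.30% of all tested genes. Estimates were higher for 5 members (50.8% of all tested genes) and lower for 5. Of the 10, 6 were smaller than the larger of the differences between replicates of a line. That count was not made over all tested genes, so it is no trait of the members. The median log2 fold change was -0.01 over the members and 0.00345 over all tested genes. The 95% intervals reached at most 0.203 to either side of an estimate on the log2 scale (Nagk) and at least 0.0803 (Gnpda1), which is the precision these 4 libraries allow.

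**Figure D1:**
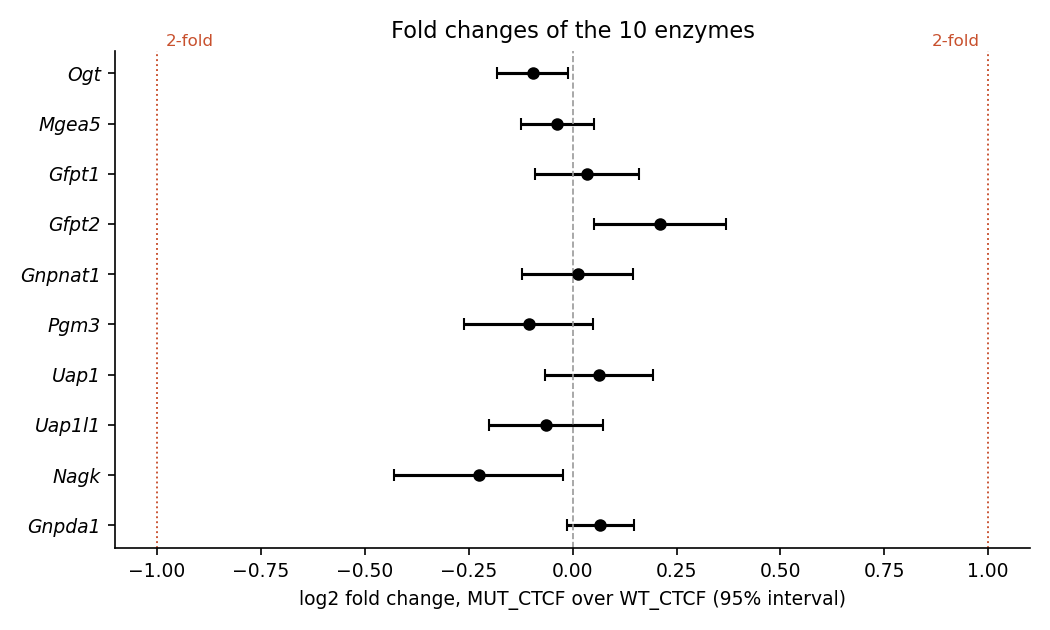
The log2 fold change of MUT_CTCF over WT_CTCF (horizontal axis) is drawn for each of the 10 enzymes (vertical axis), with points for the edgeR estimate, bars for its 95% interval and dotted lines at a fold of 2 in either direction. The interval lies above 0 for Gfpt2, below 0 for Ogt and Nagk, and spans 0 for the other members, before any adjustment for the number of genes tested.

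Library totals lay between 40524694 and 40977464 counts, and the 10 members together took 0.0655% to 0.0664% of them. Normalized counts below are counts scaled by TMM to the mean library. All 8 ES cell markers looked up, among them Pou5f1, Sox2 and Nanog, were expressed, with summed levels of 5315 to 5325 CPM (counts scaled to library size) in the 4 libraries. That sum covered opposite shifts. Pou5f1 (813.2 and 793.1 CPM in WT_CTCF, 755 and 774.2 in MUT_CTCF), Zfp42 and Dppa4 were lower in both MUT_CTCF libraries. Sox2 (514.7 and 509 against 542.4 and 551), Nanog and Klf4 were higher in both, and Esrrb and Tdgf1 overlapped. Of all tested genes, 22.3% were lower and 22.3% higher in this way. The 6 fibroblast markers summed to 21.7 and 22.2 CPM in WT_CTCF and 23.5 and 25.1 CPM in MUT_CTCF, most of it Thy1 (14.6 and 16.1 against 17 and 18.3 CPM), while 4 of the 6 averaged under 1 CPM over the libraries and Lum was at 0 in all, which allows up to 3 counts per library by counting error alone. The summed primitive endoderm markers were 9.53 and 9.8 CPM in WT_CTCF and 10.8 and 16.3 CPM in MUT_CTCF. Of these, Gata6 (1.4 and 1.23 against 2.41 and 2.66 CPM) and Sox17 were higher in both MUT_CTCF libraries, while Gata4 and Pdgfra overlapped. Mesoderm markers summed to 13.5 to 15.7 CPM with overlapping lines. Neural markers summed to 63.1 and 63.6 CPM in WT_CTCF and 67.7 and 69 CPM in MUT_CTCF, nearly all of it Nes, with Fgf5 at 0. Their part in the small differences below was not tested, and in bulk RNA fewer cells of a type and less RNA per cell cannot be told apart. Ctcf itself, counted without separating the vector's transcripts from the endogenous ones, was higher in MUT_CTCF by 0.04 on the log2 scale (adjusted p = 0.499, edgeR). It had 18302 and 18669 normalized counts in WT_CTCF and 18791 and 19325 in MUT_CTCF. Both MUT_CTCF libraries thus lay above both WT_CTCF libraries, as in 22.3% of all tested genes.

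Promoter sequence is given first for the writer and for the genes of the entry and last steps, because the members are compared below between cells that differ in the CTCF protein. RefSeq start sites gave 8 windows of 300 bases (250 before and 50 after the start) for 7 of the members: 2 for Ogt and 1 each for Mgea5, Gfpt1, Gfpt2, Pgm3, Uap1 and Nagk. Each matched the mm9 genome at 1 place. The 250 bases before the start are printed 5′ to 3′ on the strand of the gene for windows that hold no annotated exon, with each GC box (GGGCGG or its reverse complement CCGCCC, the core that Sp1-type factors bind) in capitals.
Ogt, + strand, chrX:98835140-98835389: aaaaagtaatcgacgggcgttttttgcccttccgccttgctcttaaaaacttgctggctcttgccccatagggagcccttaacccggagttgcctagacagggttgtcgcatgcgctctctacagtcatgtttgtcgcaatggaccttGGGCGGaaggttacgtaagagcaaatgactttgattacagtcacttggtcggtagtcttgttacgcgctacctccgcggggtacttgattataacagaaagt
Gfpt1, + strand, chr6:86992590-86992839: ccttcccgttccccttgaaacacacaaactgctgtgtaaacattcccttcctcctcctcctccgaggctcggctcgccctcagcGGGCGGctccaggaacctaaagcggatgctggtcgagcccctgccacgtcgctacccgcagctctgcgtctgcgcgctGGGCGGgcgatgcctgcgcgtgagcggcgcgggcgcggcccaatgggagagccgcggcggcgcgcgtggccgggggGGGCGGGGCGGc
Gfpt2, + strand, chr11:49607407-49607656: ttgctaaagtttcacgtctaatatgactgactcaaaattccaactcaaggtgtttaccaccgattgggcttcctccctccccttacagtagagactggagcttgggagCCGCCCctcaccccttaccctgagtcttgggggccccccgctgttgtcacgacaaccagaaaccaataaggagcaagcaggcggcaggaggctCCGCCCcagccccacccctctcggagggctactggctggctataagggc
Uap1, - strand, chr1:172105096-172105345: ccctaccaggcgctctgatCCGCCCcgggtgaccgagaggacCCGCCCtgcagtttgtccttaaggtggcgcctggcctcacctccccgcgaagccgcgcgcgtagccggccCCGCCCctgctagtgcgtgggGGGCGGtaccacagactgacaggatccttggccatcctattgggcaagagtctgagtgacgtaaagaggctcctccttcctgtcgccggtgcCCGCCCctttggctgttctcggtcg
All 8 windows held a GC box on either strand, against 35.7% of the 32851 RefSeq windows of the same length. The 2 windows of Ogt overlap, and the only box of Mgea5 begins at base 29 after the start. The RefSeq windows were not limited to genes that passed the filter on low counts, as all members did. These shares are therefore not those of expressed genes. In the printed windows, Ogt has 1 before its start, 102 bases upstream, while Gfpt1 has 4, of which the last pair overlap, Gfpt2 has 2 and Uap1 has 5. The other Ogt window, not printed because it holds exon bases, has a different box (CCGCCC), at base -60 from its own start. The ratio of observed to expected CpG was at least 0.5 in 8 of 8, against 41.9% of all windows. A 12-base core of the CTCF motif (CCA, 2 free bases, AG, 2 free bases, GGC), searched on both strands, was in 0 of 8 and in 2.43% of all windows. The word TGACGTG, bound by the unfolded protein response factor XBP1, was in 1 of 8, from base 2 after the Uap1 start, and in 2.01% of all windows. These matches describe letters in these windows and are not measured binding.

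The writer, Ogt (ENSMUSG00000034160, chrX:98835399-98879690, + strand), had 5571 and 6011 normalized counts in WT_CTCF replicates 1 and 2, and 5362 and 5473 in MUT_CTCF. Both MUT_CTCF values lay below both WT_CTCF values, but the distance from the lower WT_CTCF library was smaller than the distance between the WT_CTCF libraries. WT_CTCF averaged 5791 ± 311.3 and MUT_CTCF 5418 ± 78.3 normalized counts (SD, n = 2 each), a fold of 0.936 with a 95% interval on the log2 scale of -0.18 to -0.01. A fall in Ogt RNA deeper than 0.181 on the log2 scale was outside that interval. The estimate depended on the WT_CTCF library used, with -0.15 without WT_CTCF replicate 1 and -0.04 without replicate 2. The eraser, Mgea5 (chr19:45824751-45858236, - strand), had 4799 and 4934 normalized counts in WT_CTCF and 4837 and 4649 in MUT_CTCF. The groups overlapped, and the log2 fold change was -0.04 (standard error, SE, 0.0438, adjusted p = 0.775, edgeR's quasi-likelihood test). Of the exon bases of Mgea5, 10.9% lie under an opposite-strand gene, Gm15491, which had at most 6 counts in a library.

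Writer and eraser were also compared as a ratio within each library. The log2 ratio of Ogt to Mgea5, each per exon length, was -0.45 and -0.38 in WT_CTCF and -0.52 and -0.43 in MUT_CTCF. The groups overlapped, and the difference of -0.06 had p = 0.667 in a two-sided exact permutation test of 2 libraries against 2, whose smallest possible p is 0.333. Leaving out MUT_CTCF replicate 1 or 2 gave -0.01 or -0.10, and leaving out WT_CTCF replicate 1 or 2 gave -0.09 or -0.02. The sign of the ratio itself depends on the length used: per merged exon length Ogt stood below Mgea5, and per longest transcript above it (mean 25.5 against 23.4 RPKM, reads per kilobase scaled to library size).

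**Figure D2:**
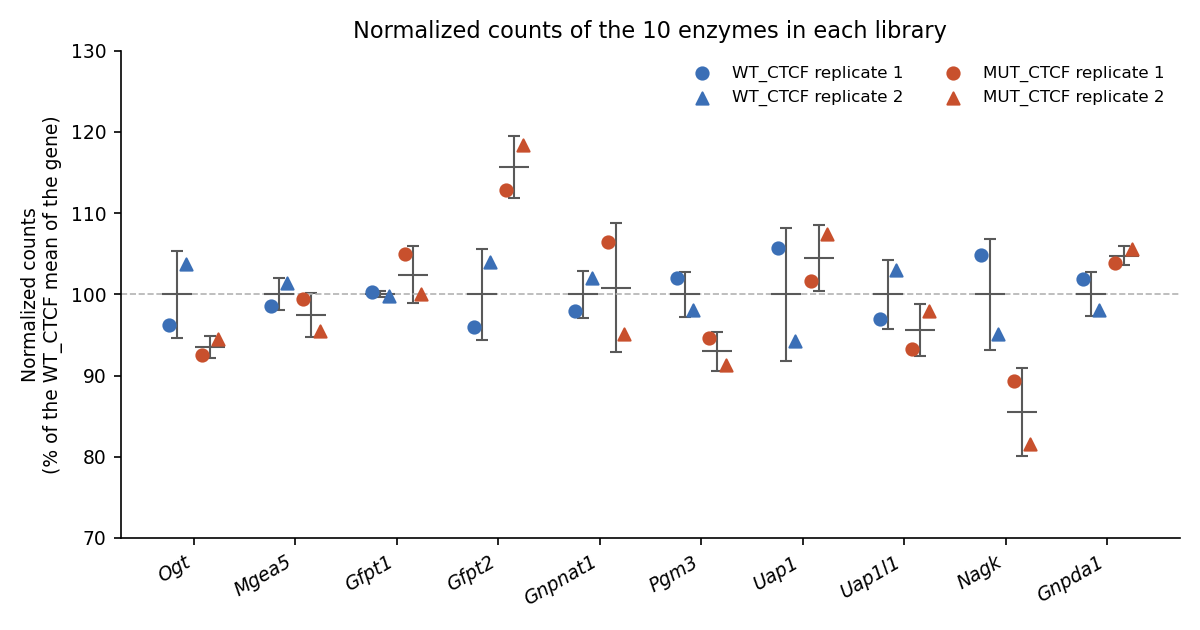
Normalized counts of each enzyme in each library are drawn as a percent of its WT_CTCF mean (vertical axis, which does not start at 0), with blue points for WT_CTCF, red points for MUT_CTCF, circles for replicate 1, triangles for replicate 2, horizontal lines for group means and bars for the SD (n = 2). The lines are separate for Ogt, Gfpt2, Pgm3, Nagk and Gnpda1 and overlap for the other 5.

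The entry step of the hexosamine pathway, transfer of the glutamine nitrogen onto fructose phosphate, is made by the paralogs Gfpt1 and Gfpt2 and limits the flux through it. Gfpt2 (chr11:49607680-49652115, + strand) had 1042 and 1128 normalized counts in WT_CTCF and 1225 and 1284 in MUT_CTCF. Both MUT_CTCF libraries were above both WT_CTCF libraries, by more than the replicates of either line differed. The fold was 1.16 with an interval of 1.04 to 1.29, the log2 fold change 0.21 (SE 0.0795, unadjusted p = 0.0107, adjusted p = 0.153, edgeR), so the member with the smallest p did not pass after adjustment. Gfpt1 (chr6:86992840-87042191, + strand), the more widely expressed paralog, had 2014 and 2004 normalized counts in WT_CTCF and 2108 and 2009 in MUT_CTCF. Its groups overlapped, with a log2 fold change of 0.03 (SE 0.0621, adjusted p = 0.865) and an interval of -0.09 to 0.16.

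Per exon length, Gfpt2 made up 40.7% and 42.8% of the summed Gfpt1 and Gfpt2 level in WT_CTCF and 43.5% and 45.9% in MUT_CTCF. The MUT_CTCF shares were the higher ones by 3 percentage points on average (41.7% ± 1.45 against 44.7% ± 1.66, SD, n = 2), with p = 0.333 in the exact permutation test, the smallest it can give. That difference was 3.03 points with the longest transcript as length, but the level of the share was not fixed by these data: Gfpt2 averaged 5.13 RPKM against 6.72 for Gfpt1 with merged exons, and 9.73 against 7.99 with the longest transcript.

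The middle steps add the acetyl group and move the phosphate. Gnpnat1 (chr14:45996009-46008477, - strand), the acetyltransferase, had 1765 and 1839 normalized counts in WT_CTCF and 1918 and 1715 in MUT_CTCF. The MUT_CTCF libraries lay to either side of the WT_CTCF ones, and the log2 fold change was 0.01 (SE 0.0669, adjusted p = 0.965), the estimate nearest to 0 among the members. Pgm3 (chr9:86446083-86465449, - strand), the mutase that moves the phosphate on N-acetylglucosamine, had 1290 and 1241 in WT_CTCF and 1197 and 1155 in MUT_CTCF. Its libraries did not overlap between the lines, with a log2 fold change of -0.11 (SE 0.0773, adjusted p = 0.574). Of the Pgm3 exon bases, 31.4% lie opposite Dopey1, whose own log2 fold change was -0.13 (adjusted p = 0.767), and the strand setting of the counting is not stated, so reads from those bases cannot be told apart.

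The last step, transfer of UMP from UTP to make UDP-GlcNAc, is made by Uap1, and Uap1l1 is its less studied paralog. Uap1 (chr1:172072069-172105088, - strand) had 2024 and 1803 normalized counts in WT_CTCF and 1945 and 2056 in MUT_CTCF. The WT_CTCF libraries differed from each other by more than the group means did, and the log2 fold change was 0.06 (SE 0.0651, adjusted p = 0.723). Uap1l1 (chr2:25215409-25221202, - strand) had 1618 and 1718 in WT_CTCF and 1556 and 1633 in MUT_CTCF, with overlapping groups and a log2 fold change of -0.06 (SE 0.0686, adjusted p = 0.736). The share of Uap1l1 in the summed level per exon length was 42.6% and 46.9% in WT_CTCF and 42.6% and 42.4% in MUT_CTCF. The difference of -2.23 percentage points had p = 0.667 in the exact permutation test and rested on 1 library: it was -0.0581 points without WT_CTCF replicate 2 and -4.4 points without WT_CTCF replicate 1.

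The remaining members act beside the main line of the pathway. Nagk (chr6:83744976-83753414, + strand), the kinase that returns free N-acetylglucosamine from degraded glycans to the pathway, had 782.2 and 709.7 normalized counts in WT_CTCF and 666.2 and 608.9 in MUT_CTCF. Both MUT_CTCF libraries were below both WT_CTCF libraries, and the gap between the lines was smaller than the distance between the WT_CTCF replicates. The fold was 0.855 with an interval of 0.743 to 0.984, the largest lower estimate of the members (log2 fold change -0.23, SE 0.101, unadjusted p = 0.0295, adjusted p = 0.265, edgeR). Gnpda1, the deaminase that runs the entry step backwards to fructose phosphate and ammonia, had 5975 and 5751 in WT_CTCF and 6093 and 6191 in MUT_CTCF. Its lines were separate with a log2 fold change of 0.07 (SE 0.0402, adjusted p = 0.455).

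Counted over the set, 2 members (Gfpt2 and Gnpda1) had both MUT_CTCF libraries above both WT_CTCF libraries, against 22.3% of all tested genes. A further 3 (Ogt, Pgm3 and Nagk) had both below, likewise against 22.3% of all tested genes. The summed normalized counts of the 10 members lay between 26773 and 27139 in the 4 libraries.

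Levels per exon length placed the enzymes in a 12-fold range. Gnpda1 stood first with a mean of 61.5 RPKM (58.9 to 63.4 over the 4 libraries), above 93.2% of the tested genes. Mgea5 followed with 23.2, then Ogt with 17.1 and Gnpnat1 with 16.9, whose ranges overlapped and whose order is therefore not resolved. Uap1 averaged 12.7 RPKM and Uap1l1 9.82. The Gfpt1 (6.72) and Pgm3 (6.53) ranges overlapped, and so did those of Nagk (5.15) and Gfpt2 (5.13), the lowest of the set. Nagk stood above Gfpt2 in WT_CTCF (5.82 and 5.28 against 4.57 and 4.94) and below it in MUT_CTCF (4.96 and 4.53 against 5.37 and 5.63). Every member stood above the median of the tested genes, which was 3.92 RPKM. With the longest annotated transcript as the length, 8 of the 10 members changed place and only Gnpda1 and Uap1l1 kept theirs. Ogt then stood second and Pgm3 last, so the rest of this order, the lowest places included, holds only for merged exons.

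**Figure D3:**
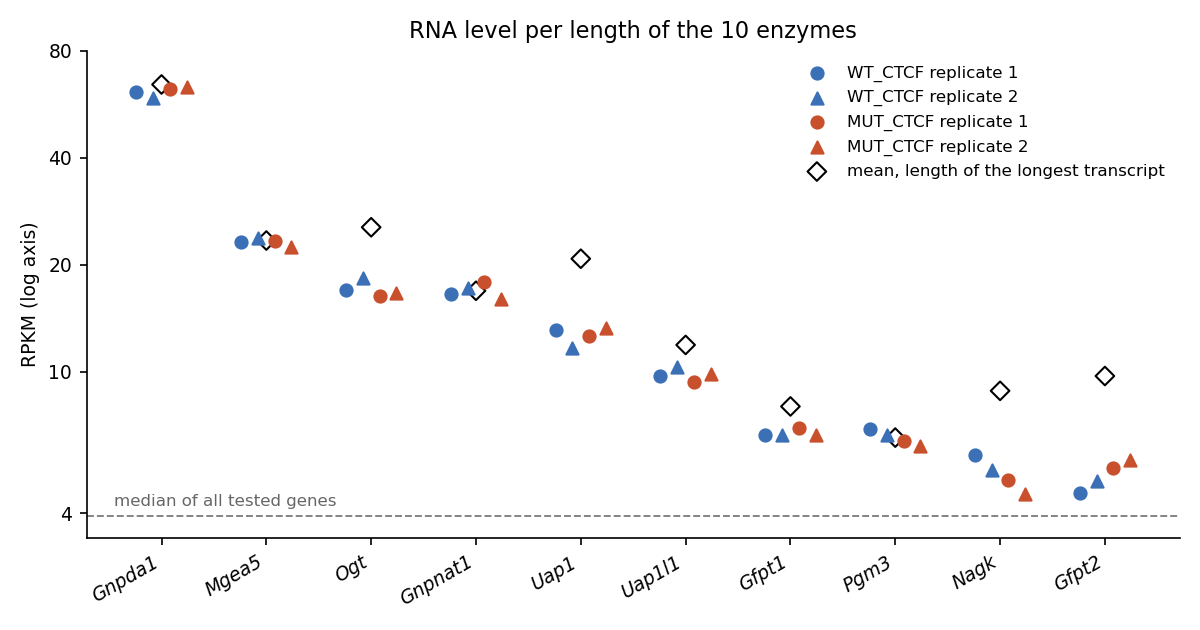
Levels per merged exon length (vertical axis, RPKM on a log scale) are drawn for the 10 enzymes in order of their mean, with blue points for the WT_CTCF and red points for the MUT_CTCF libraries, open diamonds for the mean with the longest transcript as length, and a dashed line for the median of all tested genes (3.92 RPKM). Gnpda1 lies near 61.5 RPKM and Gfpt2 near 5.13, and the diamonds of Ogt, Uap1, Nagk and Gfpt2 lie well above their points.

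The enzymes and proteins around the pathway were read from 8 lists of 58 genes, of which 56 were tested. In all 2 of them were called at an adjusted p under 0.05, both higher in MUT_CTCF, and 54 were not. That is 3.57% of them, beside 3.17% of all tested genes called in either direction. Both calls were in the list of substrate suppliers, where 6 of 6 estimates were above 0 (50.8% over all tested genes) and the median log2 fold change was 0.06. The other 4 genes of this list were not called, and the lowest estimate was 0.00775. Hk2, a hexokinase that phosphorylates glucose on its way to the fructose phosphate used by Gfpt1 and Gfpt2, had 13944 and 14025 normalized counts in WT_CTCF and 15494 and 15756 in MUT_CTCF. The lines were far apart relative to their replicates (log2 fold change 0.16, SE 0.0298, adjusted p = 0.000345, edgeR). Hk1, the broadly expressed hexokinase, had 8593 and 8802 in WT_CTCF and 9589 and 9578 in MUT_CTCF, with a log2 fold change of 0.14 (SE 0.0346, adjusted p = 0.0111). Both calls were lost with no filter on low counts (adjusted p = 0.103 for Hk2 and 0.206 for Hk1, edgeR), where 29 genes in all were called in place of 515. They were also lost without MUT_CTCF replicate 1 or replicate 2. So was the call of every other gene, so that loss is not particular to Hk2 and Hk1. Without replicate 1 or 2 the estimate was 0.172 or 0.146 for Hk2, and 0.139 in both for Hk1. The Hk1 call was lost too without WT_CTCF replicate 1 (estimate 0.122) or replicate 2 (0.156).

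In the other lists no gene was called, and the gene with the smallest p is named for each. Among 8 genes of the amino sugar side branches (median log2 fold change -0.01) this was Renbp, an epimerase of N-acetylglucosamine, at -0.11 (adjusted p = 0.266). Among 3 carriers that bring UDP-GlcNAc into the Golgi and ER it was Slc35d2, at -0.18 (adjusted p = 0.674), with -0.00622 without MUT_CTCF replicate 2 and -0.38 without MUT_CTCF replicate 1. Users of the donor were 9 N-glycan transferases with Mgat4b at 0.17 (adjusted p = 0.125), 7 subunits of the GPI transferase with Piga, its catalytic subunit, at -0.09 (adjusted p = 0.503), and 9 tested transferases of other polymers and O-linked glycans with Ext1, of heparan sulfate, at 0.09 (adjusted p = 0.621). The hyaluronan synthases Has1 and Has2, with at most 10 counts in a library, were not tested. Among 5 glycosidases that release N-acetylglucosamine the smallest p was that of Hexa, a lysosomal hexosaminidase subunit, at -0.07 (adjusted p = 0.603).

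Proteins that bind OGT came closest to the threshold through 1 gene. Tet3, a dioxygenase that oxidizes methylcytosine and forms a complex with OGT, had 995.6 and 877.1 normalized counts in WT_CTCF and 1148 and 1089 in MUT_CTCF. The lines did not overlap, and the log2 fold change was 0.26 (SE 0.0854, adjusted p = 0.0896, edgeR). Of 11 alternatives 1 passed, the replicate block at adjusted p = 0.0486 (edgeR), and DESeq2 gave no adjusted p for Tet3. The adjusted p reached 0.402 with no filter. Leaving out MUT_CTCF replicate 1 or 2, where no gene at all was called, gave an estimate of 0.22 or 0.29. Leaving out WT_CTCF replicate 1 or 2 gave an estimate of 0.35 or 0.17, neither called. The other 8 genes of this list lay between -0.09 and 0.03 on the log2 scale, and the median of the 9 was -0.00446.

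**Figure D4:**
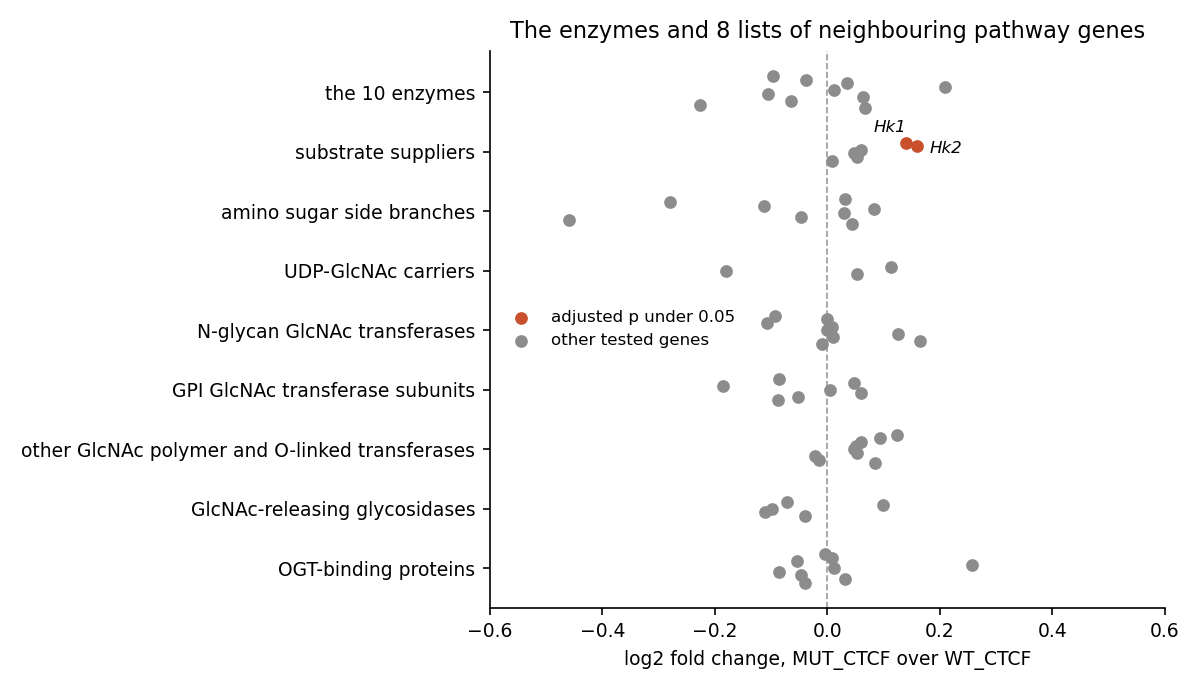
The log2 fold change of MUT_CTCF over WT_CTCF (horizontal axis) is drawn for each tested gene of the 10 enzymes and the 8 lists around them (vertical axis), with red points for genes at an adjusted p under 0.05. Hk1 and Hk2 among the substrate suppliers are the 2 red points, and the enzymes lie between -0.23 and 0.21.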

How the data were processed

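RNA-seq of 2 WT_CTCF and 2 MUT_CTCF libraries was taken as the raw counts per gene that the authors deposited. According to the methods and the submitters' processing notes, the authors trimmed reads with Trim Galore 0.4.4, aligned them to mm9 with STAR and counted uniquely mapped reads with HTSeq 0.9.1, without normalization. The strand setting is not given in the sources used here. A deposited table of the authors' own edgeR comparison (fold changes and p-values) was not used. Column names tied each column to its library.

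Gene names, places and lengths came from GENCODE M1 (NCBIM37, mm9), which named 37205 of 37620 identifiers. Genes were kept by filterByExpr (minimum 10 counts), scaled by TMM (factors 0.994 to 1.01) and tested with edgeR 4.0.16 (R 4.3.3), glmQLFit and glmQLFTest on the line alone, with Benjamini-Hochberg adjustment over 16264 genes. A standard error is the log2 fold change divided by the root of F, and intervals are 95% from the same fit. RPKM are counts per merged exon kilobase and per TMM-scaled library size (in CPM units). Single ratios were compared by exact permutation tests. Alternatives were edgeR's exact test, DESeq2 1.42.0 and its size factors alone, library size only, other filters, a replicate block, each library left out in turn and the longest transcript as length. The members, the lists, the motifs and the tests were chosen with earlier results of these data known. All members and Ctcf are named, and of each list the genes with an adjusted p under 0.05 (at most 3) or else the gene with the smallest p. Promoter windows are RefSeq's, placed on mm9 by exact match.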

Additional observations from a re-analysis of the deposited data

How the results depend on the processing

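No member was called at an adjusted p under 0.05 with any alternative, and between 0 and 3 had an unadjusted p under 0.05. DESeq2 gave no adjusted p for Gfpt2 and Nagk. Estimates of 7 members kept their sign in every alternative. Leaving out 1 library turned 3 small ones: Gfpt1 ran from -0.000211 (without MUT_CTCF replicate 1) to 0.0678, Gnpnat1 from -0.0712 (without MUT_CTCF replicate 1, -0.0181 without WT_CTCF replicate 1) to 0.0888, and Uap1 from -0.0182 (without WT_CTCF replicate 2) to 0.149. With the longest transcript, 8 members changed place in the order of levels. Estimates also moved by over 1.5 times with a library left out for Ogt (-0.15 to -0.0413), Mgea5 (-0.0657 to -0.0101), Uap1l1 (-0.108 to -0.0217) and Gnpda1 (0.0385 to 0.0943), none of them called.

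Over all tested genes, 253 were higher and 262 lower. DESeq2 gave 117 higher, no filter 26 higher and 3 lower, scaling by library size only 152 lower, and leaving out a library 0 to 140 higher and 0 to 102 lower, with 0 calls without either MUT_CTCF library. DESeq2 calls were counted over 5896 genes and those with no filter over 23739, in place of 16264, so these numbers do not share 1 base. The replicate block gave 698 calls in place of 515. The numbers are not known to pair the libraries, since differences between replicates 2 and 1 correlated at 0.00292 between the lines, and the block changed no call of a member. In the lists, the calls among substrate suppliers were 0 without a filter and 0 to 1 with a library left out, and the replicate block added Tet3. List medians moved with scaling by library size only (0.0689 for substrate suppliers), with at least 10 reads in every library (0.0317 for the amino sugar side branches), and with a library left out (0.0795 for substrate suppliers, 0.0199 for the amino sugar side branches, -0.0496 and -0.0629 for the UDP-GlcNAc carriers in place of 0.0526, 0.0398 for N-glycan transferases, 0.0184 for the GPI subunits and -0.158 for the glycosidases).

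At 606 to 6161 counts per member, with 2 libraries of 1 line on each side, the intervals reach down to -0.429 on the log2 scale (Nagk) and up to 0.369 (Gfpt2), and differences between clones were not measured.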
